A study of Homo sapiens with 12 samples.

Results

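Epithelial cells are joined and oriented by a small set of structures, and 36 genes that build them were followed in LNCaP cells. The set holds 6 adherens junction genes, 6 desmosome genes, 12 of tight junctions, 5 of polarity and membrane trafficking, 4 keratins and 3 regulators of adhesion or splicing, with F11R and TJP3 among those of tight junctions. The genes were taken from a list of symbols. Of the 36, 34 had a probe named for them on the array, and 28 passed a filter that kept probes brighter on average than the median probe, out of 12420 genes tested. The levels of F11R and TJP3 are not analysed here. LNCaP is an androgen-responsive line derived from a metastasis of human prostate cancer. It was grown in RPMI medium with serum and transfected by Lipofectamine2000 with a pcDNA3.1 plasmid that carried either the FOXA1 cDNA or GFP. RNA was taken 48 h later and read on Illumina bead arrays, 6 for each plasmid, with replicate numbers 1 to 6 in both groups. The labels do not say that replicates were separate cultures, so a p-value speaks of the scatter among these 12 arrays alone, part of which may be technical.

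Adherens junctions hold neighbouring cells together through E-cadherin, which is anchored to actin by catenins, while desmosomes tie the keratin filaments of neighbouring cells to each other through desmosomal cadherins, plakoglobin, plakophilins and desmoplakin. Tight junctions, built from claudins and other membrane proteins on cytoplasmic scaffolds, seal the space between cells at the apical side, and polarity complexes set where that side lies. FOXA1 is a forkhead transcription factor that opens chromatin in luminal prostate cells and helps the androgen receptor bind DNA. Luminal epithelium carries the simple keratins KRT8, KRT18 and KRT19, and several junction genes are known to be lost when an epithelial cell takes on a mesenchymal state.

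The FOXA1 transcript itself was read by 1 probe. Its normalized log2 intensity was 13.42 ± 0.13 (SD, n = 6) on the arrays labelled FOXA1, between 13.29 and 13.62, and 13.30 ± 0.16 (SD, n = 6) on the arrays labelled GFP, between 13.01 and 13.48. The groups overlapped, and the difference of 0.13 had a 95% interval from -0.07 to 0.32 (limma, adjusted p = 1.00). The files do not say where on the transcript this probe lies, so the array does not show whether it could read the plasmid's cDNA, and each group is called below by its label. All 6 measured markers of prostate luminal cells were above background on all 12 arrays, and all 3 measured basal keratins were at background on all 12. Of the stromal, leukocyte and endothelial markers, VWF alone was above background on all 12 arrays. Others were so on some arrays, for example CD14 on 7, POSTN on 6 and CD2 and MS4A1 on 4 each. On no array above background were 2 of 7 stromal, 2 of 6 leukocyte and 4 of 5 endothelial markers. After the group means were removed, 3 arrays (GFP 3, FOXA1 3 and FOXA1 4) had the highest scores on the leading component, which held 41.2% of the variance. Their scores were 0.25, 0.15 and 0.20. GFP 6 followed at 0.08, and all others were negative, so no clear gap sets the 3 apart from GFP 6.

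Most of the junction and keratin genes were above background in LNCaP. Background was taken, on each array, as the 95th percentile of 784 further probes of the non-normalized table, which the sources do not explain, and it lay between 7.62 and 7.70 on the normalized scale. Each gene is given by its probe of highest mean. By this probe 24 genes were above background on all 12 arrays, 3 on some arrays and 7 on none. Of all probes, whether brightest of a gene or not, 32.8% (GFP 3) to 36.4% (FOXA1 3) were above background on an array. Brightness depends on the probe as well as on the transcript, so levels are given here per gene and are not ranked between genes. CDH1, which encodes E-cadherin, averaged 12.59 over the 12 arrays, and the E-cadherin partner CTNNA1 averaged 12.35. EPCAM, a surface adhesion protein of epithelia, averaged 12.36. The claudin genes CLDN7, CLDN12 and CLDN3 averaged 11.94, 10.51 and 10.50. Among the desmosome genes, DSG2 averaged 11.99 and DSC2 11.18. A level is that of 1 probe, and the mean over a gene's kept probes was lower by 0.29 to 2.14 for 13 genes, for example 10.49 for DSG2, 10.15 for DSC2 and 11.09 for EPCAM.

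The genes whose brightest probe was at background were of a few kinds. KRT7, a simple keratin of many ductal epithelia, averaged 6.86. The tight junction genes CLDN1 and OCLN averaged 6.69 and 6.86, and PKP2, a desmosomal plakophilin, averaged 7.22. ESRP2, an epithelial splicing regulator, averaged 6.83, and PARD3, a scaffold of the polarity complex, averaged 6.80. These 6 did not pass the filter. LLGL2, a polarity gene of the lateral membrane, averaged 7.48 and passed the filter. Its brightest probe was above background on 0 arrays, while another of its 6 probes was so on 2. CLDN4 was above background on 6 arrays, PARD6B, a partner of PARD3 in the polarity complex, on 5, and CTNND1, the catenin that binds the juxtamembrane part of E-cadherin, on 9. Without the filter, the FOXA1 minus GFP differences of the 6 genes that did not pass lay between -0.08 for OCLN and 0.10 for CLDN1.

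**Figure D1:**
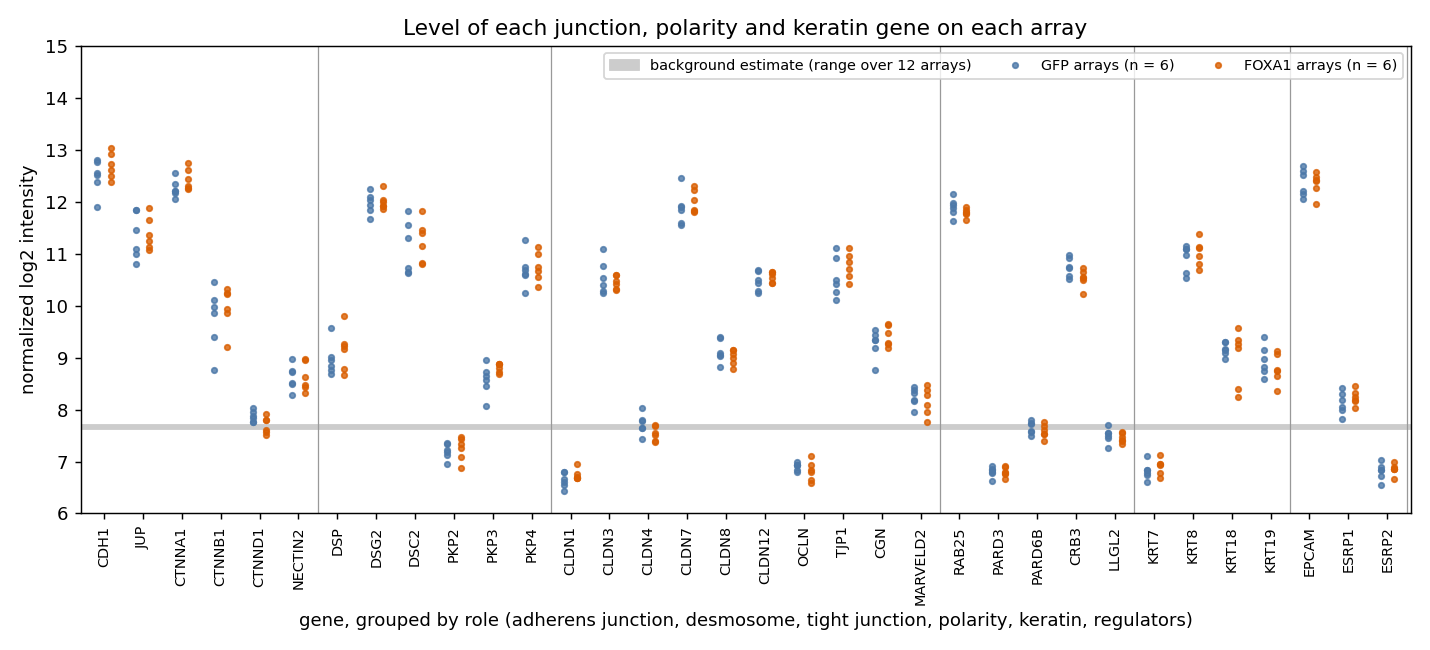
Normalized log2 intensity (vertical axis) of the 34 measured genes (horizontal axis, grouped by role), with 1 point for each of the 6 arrays of a group and a grey band for the background estimate of 7.62 to 7.70. Points of both groups overlap for every gene, and KRT7, CLDN1, OCLN, PKP2, ESRP2, PARD3 and LLGL2, by the probe plotted, lie at or below the band.

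The promoters of these genes were searched for the letters that FOXA1 and repressors of epithelial genes such as the SNAI and ZEB factors bind. RefSeq (GRCh38.p14) windows of 250 bases before a transcription start were available for 21 of the 36 genes, in 33 windows, and both strands were searched. The forkhead motif TGTTTAC occurred in 1 of the 33 windows, at DSC2, against 2.98% of all 35116 windows, and TGTTTGC in 2, at JUP and TJP1, against 3.23% of all. The E-box CAGGTG occurred in 11 of the 33 windows (33.3%), of 10 genes, against 17.5% of all windows. CRB3 had 5 matches, which 0.074% of all windows reach, and CLDN7 had 4, which 0.122% reach. A match is a description of letters and not a site of binding. Windows with a match are shown for CRB3, which had the smallest limma p of these genes in the FOXA1 comparison, and for DSP and DSC2. DSP and DSC2 were called by replicate number, as was KRT19, which had no window with a match. The DSC2 window shown is the one with TGTTTAC, and another DSC2 window held 1 CAGGTG match. Capitals mark CAGGTG or its complement in CRB3 and DSP and TGTTTAC in DSC2, and the positions are chr19:6464021-6464270 (plus strand), chr6:7541421-7541670 (plus strand) and chr18:31101261-31101510 (minus strand).
CRB3: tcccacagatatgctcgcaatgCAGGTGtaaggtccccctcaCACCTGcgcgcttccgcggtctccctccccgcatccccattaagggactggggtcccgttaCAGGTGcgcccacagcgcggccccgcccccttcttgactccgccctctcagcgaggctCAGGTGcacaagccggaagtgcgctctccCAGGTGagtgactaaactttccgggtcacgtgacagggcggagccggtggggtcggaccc
DSP: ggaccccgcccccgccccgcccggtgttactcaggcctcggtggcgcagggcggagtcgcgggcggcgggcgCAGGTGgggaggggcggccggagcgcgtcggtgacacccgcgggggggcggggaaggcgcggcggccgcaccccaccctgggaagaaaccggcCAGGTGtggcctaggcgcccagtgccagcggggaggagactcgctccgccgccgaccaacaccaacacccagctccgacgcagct
DSC2: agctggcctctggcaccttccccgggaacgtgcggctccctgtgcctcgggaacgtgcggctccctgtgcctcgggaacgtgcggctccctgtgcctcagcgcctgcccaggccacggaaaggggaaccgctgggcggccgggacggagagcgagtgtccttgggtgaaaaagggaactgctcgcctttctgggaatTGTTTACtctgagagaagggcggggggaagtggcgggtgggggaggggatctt
The matches in CRB3 lay 228, 208, 147, 89 and 60 bases before the start, those in DSP 178 and 85 bases before it, and the forkhead match in DSC2 53 bases before it.

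The first comparison asked whether the junction, polarity and keratin genes differed between cells given the FOXA1 plasmid and cells given GFP. None of the 28 genes passed limma's test (adjusted p = 1.00 for each), and 0% of all 12420 genes did. At an unadjusted limma p under 0.05 there were 203 genes, among them 1 of these 28, CRB3. A positive difference in level was found for 16 of the genes and a negative one for 12, against 6678 and 5742 of all genes tested. The median log2 difference was 0.04 against 0.01 over all genes tested. The groups did not overlap for 0 of the 28 genes, and for 0.0644% of all genes. The differences of single genes lay between -0.22 and 0.24. Leaving out 1 array moved the difference by over 1.5 times for 26 of the 28 genes, all but CRB3 and CTNND1. The 95% interval stayed within 1.5-fold in either direction for 26 of the 28 genes (92.9%, against 96.7% of all genes tested) and within 2-fold for all 28. In RNA from whole cultures, fewer cells of a kind and less RNA per cell cannot be told apart.

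**Figure D2:**
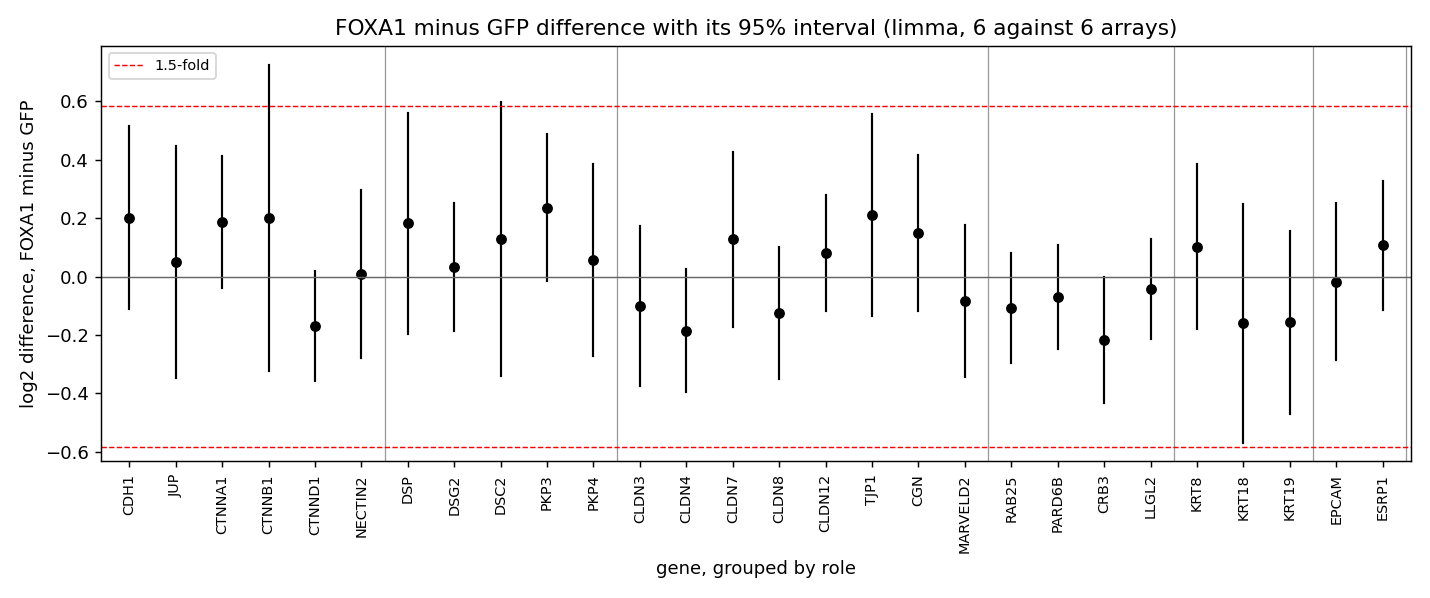
FOXA1 minus GFP difference in normalized log2 intensity (vertical axis) for the 28 genes that passed the filter (horizontal axis, grouped by role), with the 95% interval of the limma fit as a bar and dashed lines at 1.5-fold. The points lie between -0.22 and 0.24, and only the bars of CTNNB1 and DSC2 cross a dashed line.

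Of the 6 adherens junction genes, 5 had positive differences and CTNND1 a negative one, with a median of 0.12, and none passed the test. CDH1 lay between 12.39 and 13.03 with a median of 12.66 on the FOXA1 arrays, and between 11.90 and 12.81 with a median of 12.54 on the GFP arrays. A two-sided exact permutation test over the 924 arrangements of the arrays gave p = 0.268 for its difference of 0.20, with 2 FOXA1 arrays above all GFP arrays. GFP 2 was the lowest array, and without it the CDH1 difference was 0.08. CTNNA1, which links the cadherin complex to actin, lay between 12.25 and 12.75 with a median of 12.38 on the FOXA1 arrays. On the GFP arrays CTNNA1 lay between 12.05 and 12.55 with a median of 12.20. Its difference of 0.19 had an exact permutation p of 0.115, and a second bright probe of the gene gave 0.20.

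CTNNB1, which encodes beta-catenin, the catenin that also carries Wnt signals, varied most of all 28 genes between arrays. Its level lay between 9.20 and 10.32 with a median of 10.08 on the FOXA1 arrays, and between 8.76 and 10.46 with a median of 9.92 on the GFP arrays. GFP 2 was lowest at 8.76, followed by FOXA1 4 at 9.20 and GFP 3 at 9.40, so that both groups held low arrays. The difference between groups was 0.20 with a standard error of 0.25 (limma, adjusted p = 1.00). It was 0.00079 without GFP 2 and 0.35 without FOXA1 4. A second bright CTNNB1 probe gave 8.79 on GFP 2 and 9.32 on FOXA1 4, and correlated with the first at r = 0.951 over the 12 arrays after the group means were removed, as a description of probes that share those arrays. CTNND1 was low enough to fall below background on some arrays, and its difference of -0.17 (exact permutation p = 0.0693) was not shared by its 4 other probes, whose differences lay between -0.06 and 0.19. NECTIN2, an immunoglobulin-like adhesion molecule of adherens junctions, and JUP, the plakoglobin of adherens junctions and desmosomes, differed by 0.01 and 0.05, and a second bright JUP probe gave 0.24. Without GFP 3, FOXA1 3 and FOXA1 4 the differences of these genes were -0.09 and -0.04.

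All 5 desmosome genes that passed the filter had positive differences by their brightest probe, with a median of 0.13, and none passed the test. PKP3, a plakophilin of desmosomes in simple and stratified epithelia, lay between 8.68 and 8.88 with a median of 8.84 on the FOXA1 arrays, and between 8.06 and 8.96 with a median of 8.60 on the GFP arrays. The FOXA1 arrays thus lay inside the range of the GFP arrays, of which GFP 2 was lowest. The PKP3 difference of 0.24 was the largest positive one of the 28, with an exact permutation p of 0.0801, and it was 0.13 without GFP 2. DSP, desmoplakin, differed by 0.18 and DSC2, a desmosomal cadherin, by 0.13, but a second DSC2 probe, above background on all 12 arrays, gave -0.07. DSG2, its cadherin partner, and PKP4, a plakophilin relative that also sits at adherens junctions, differed by 0.03 and 0.06.

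Of the 8 tight junction genes that passed the filter, 4 had positive and 4 negative differences, with a median of -0.00200. TJP1, the scaffold protein ZO-1, lay between 10.41 and 11.10 with a median of 10.77 on the FOXA1 arrays. On the GFP arrays it lay between 10.11 and 11.11 with a median of 10.46, so the groups covered much the same range. Its difference was 0.21 (exact permutation p = 0.286), and a second probe gave 0.23. Leaving out single arrays moved the TJP1 difference to 0.12 (without GFP 5) or 0.32 (without GFP 1). CLDN4, a sealing claudin, lay between 7.38 and 7.70 with a median of 7.53 on the FOXA1 arrays, and between 7.43 and 8.03 with a median of 7.71 on the GFP arrays. Its difference of -0.19 had an exact permutation p of 0.0952, and these levels straddle the background. The claudin genes CLDN3 and CLDN8 differed by -0.10 and -0.12, and CLDN7 and CLDN12 by 0.13 and 0.08. CGN, cingulin, a cytoplasmic linker of tight junctions to the cytoskeleton, differed by 0.15, and MARVELD2, tricellulin, by -0.08. GFP 3 was highest for both CLDN3 at 11.09 and CLDN7 at 12.46, and without that array the CLDN3 difference was 0.00737 and the CLDN7 difference 0.24. A second CLDN8 probe gave 0.03.

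The 4 polarity and trafficking genes that passed the filter had negative differences, with a median of -0.09, and none passed the test. CRB3, the crumbs protein that marks the apical membrane of epithelia, lay between 10.22 and 10.72 with a median of 10.54 on the FOXA1 arrays, and between 10.52 and 10.98 with a median of 10.74 on the GFP arrays. FOXA1 3 was lowest of all 12 and GFP 2 highest, and 2 FOXA1 arrays lay below all GFP arrays. The CRB3 difference of -0.22 had a standard error of 0.10 and an exact permutation p of 0.0563 (limma, adjusted p = 1.00). Its 2 other probes gave -0.09 and -0.07. Of the 21 genes with a promoter window, CRB3 is the one with the most E-box matches. A link between matches and differences was not tested, and CLDN7, with 4 matches, differed by 0.13. RAB25, a small GTPase of apical recycling, differed by -0.11, PARD6B by -0.07 and LLGL2 by -0.04. The PARD6B probe was above background on 5 arrays and the brightest LLGL2 probe on 0. Other LLGL2 probes gave differences between -0.14 and 0.09.

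The keratin genes held 1 positive and 2 negative differences. KRT8, the type II partner of KRT18 in simple epithelia, lay between 10.69 and 11.38 with a median of 11.04 on the FOXA1 arrays. On the GFP arrays KRT8 lay between 10.53 and 11.16 with a median of 11.03, a difference of 0.10. KRT18 lay between 8.24 and 9.57 with a median of 9.22 on the FOXA1 arrays, and between 8.98 and 9.30 with a median of 9.15 on the GFP arrays. The lowest were 2 FOXA1 arrays, FOXA1 4 at 8.24 and FOXA1 3 at 8.40, while the other 4 lay between 9.19 and 9.57. The within-group SD of KRT18 was 0.54 on the FOXA1 arrays and 0.12 on the GFP arrays. Its difference of -0.16 (exact permutation p = 0.468) was -0.0089 without FOXA1 4 and 0.18 when GFP 3, FOXA1 3 and FOXA1 4 were left out. The KRT8 difference was 0.03 without GFP 1, and the KRT19 difference of -0.16 was -0.07 without GFP 5. The second KRT18 probe was low on the same FOXA1 arrays, at 7.67 on FOXA1 4 and 7.95 on FOXA1 3, while KRT8 was highest of all 12 arrays on FOXA1 4, at 11.38. No protein-coding gene lies between KRT8 and KRT18 in the RefSeq annotation.

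**Figure D3:**
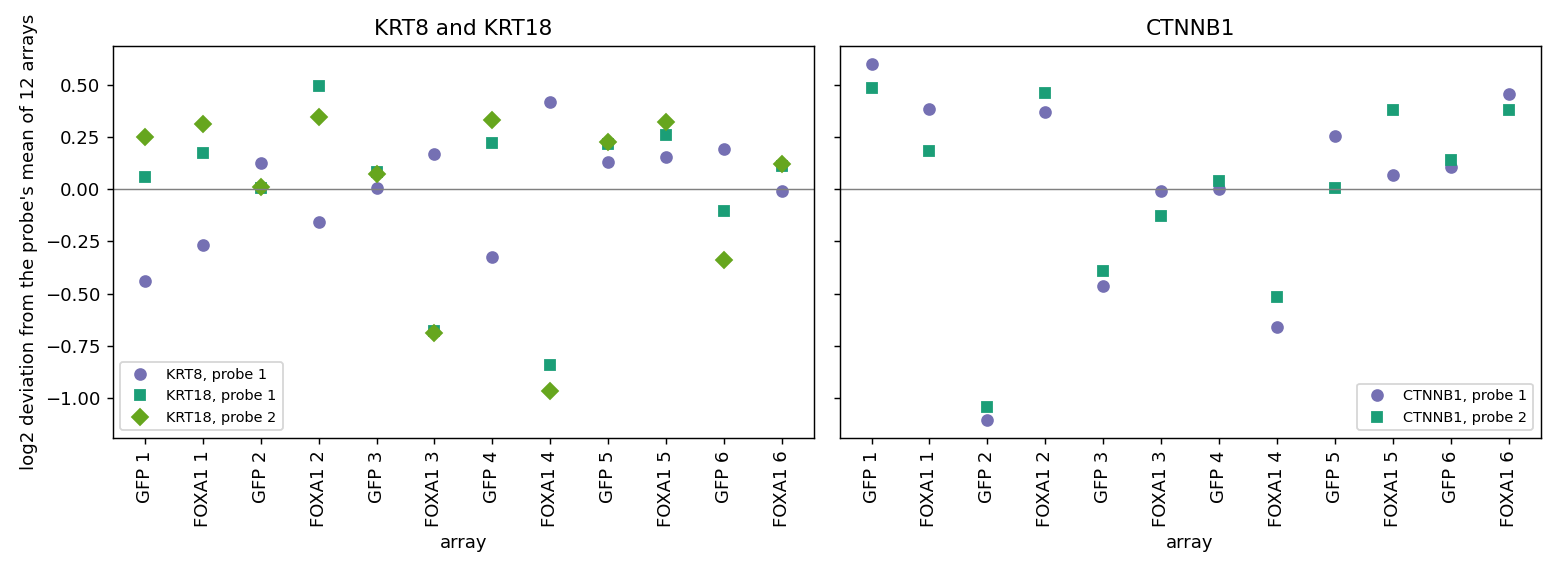
Log2 deviation of each probe from its own mean over 12 arrays (vertical axis) on each array (horizontal axis), for KRT8 and both KRT18 probes on the left and for the 2 bright CTNNB1 probes on the right. Both KRT18 probes are low on FOXA1 3 and FOXA1 4, where KRT8 is above its mean, and both CTNNB1 probes are lowest on GFP 2.

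EPCAM lay between 11.96 and 12.57 with a median of 12.41 on the FOXA1 arrays, and between 12.05 and 12.68 with a median of 12.36 on the GFP arrays, a difference of -0.02. Its 2 other probes gave 0.10 and -0.04. ESRP1, an epithelial splicing regulator, differed by 0.11. Other genes of the same structures were tested in the same fit. Of 97 further junction, polarity and keratin genes, 86 had a probe and 55 passed the filter, with 33 positive and 22 negative differences, a median of 0.03 and 0 genes called. Of 11 transcription factors of epithelial identity, 7 passed the filter and none was called. The smallest p among them was that of GRHL2, with a difference of 0.37 and a standard error of 0.18 (limma, adjusted p = 1.00). Of 14 mesenchymal regulators and markers, 8 were at background on all arrays, among them CDH2, ZEB1, SNAI1, SNAI3 and FN1. TWIST1 and VIM were above background on all 12, SNAI2 on 10 and ZEB2 on 1. None of the 6 mesenchymal genes that passed the filter was called, and their median difference was -0.01.

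The second comparison asked whether arrays that share a replicate number deviate together, by limma's F test of the number beside the group. What a number stands for is not stated. The test called 3 of the 28 genes (10.7%), namely DSC2, DSP and KRT19, against 2.53% of all genes. At an unadjusted limma p under 0.05 it held 7 of the 28 and 1931 of all genes. The span between the highest and lowest replicate number had a median of 0.482 over the 28 genes and 0.346 over all genes, and the within-group SD had a median of 0.240 against 0.177.

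DSC2 changed most with the replicate number. Both arrays numbered 6 stood at 11.82, and those numbered 1 at 11.40 (FOXA1) and 11.56 (GFP). Those numbered 5 stood at 11.46 and 11.31. Lower values were shared by the FOXA1 and GFP arrays numbered 2, at 10.82 and 10.65, and by those numbered 4, at 10.80 and 10.64, with number 3 at 11.16 and 10.73. Numbers 6, 1 and 5 thus were above numbers 2, 3 and 4 in both groups, and the span, 2.14-fold on the linear scale, lay between numbers 6 and 4 (limma F test, adjusted p = 0.00375). DSC2, JUP and TJP1, whose windows hold a forkhead motif, differed between plasmids by 0.13, 0.05 and 0.21. None passed the adjusted test, but neither did any of the 12420 genes, and a link with the motif was not tested. The second DSC2 probe correlated with the first at r = 0.806, likewise after the group means were removed, but did not repeat that order in the FOXA1 group. On it FOXA1 2 stood at 9.29, above FOXA1 1 at 9.22, while GFP 2 and GFP 1 stood at 8.35 and 9.88. Its FOXA1 and GFP arrays numbered 4 were far apart, at 7.98 and 9.02. Those numbered 3, 5 and 6 were closer, at 8.54 and 8.27, 9.64 and 9.67, and 9.80 and 9.71. DSC2 was called without each single array and also without GFP 3, FOXA1 3 and FOXA1 4, but not when the non-normalized table was centred on its medians (adjusted p = 0.122).

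DSP was highest on the arrays numbered 3, at 9.80 (FOXA1) and 9.57 (GFP). It was lowest on those numbered 2, at 8.67 and 8.68, with number 1 at 8.78 and 8.83. The remaining numbers 4, 5 and 6 stood at 9.23 and 8.96, 9.26 and 8.76, and 9.16 and 9.01. The span was 1.01 on the log2 scale (adjusted p = 0.0240). FOXA1 3 and GFP 3 are among the 3 arrays highest on the leading component, and without those 3 the span was 0.41 (adjusted p = 0.321). DSP was called without FOXA1 4, FOXA1 5, FOXA1 6, GFP 1 or GFP 4, and lost without each of the other 7 arrays, while its span stayed between 0.90 and 1.12 with any 1 array left out. Its second probe was near background and correlated with the first at r = 0.109 in the same way.

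KRT19, a simple keratin with no fixed type II partner, stood highest on the arrays numbered 5, at 9.13 (FOXA1) and 9.40 (GFP), followed by number 2 at 9.08 and 9.15. It stood lowest on number 3, at 8.35 and 8.58. Numbers 1, 4 and 6 stood at 8.75 and 8.74, 8.64 and 8.81, and 8.76 and 8.97. Numbers 5 and 2 were highest and number 3 lowest in both groups, with a span of 0.80 (adjusted p = 0.0360). KRT19 kept its call without FOXA1 4 or GFP 4 and lost it without each of the other 10 arrays, while its span stayed between 0.73 and 0.86. Its adjusted p without GFP 3, FOXA1 3 and FOXA1 4 was 0.0760. In the RefSeq annotation 4 protein-coding genes lie between DSC2 and DSG2, and DSG2 was not called, with a span of 0.475.

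**Figure D4:**
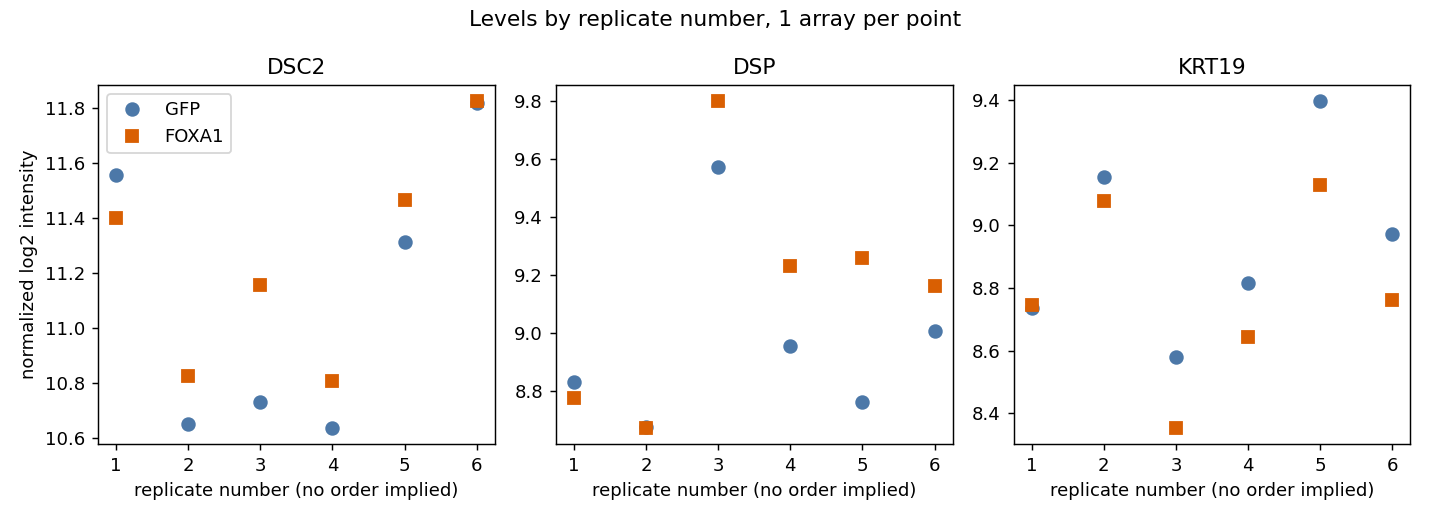
Normalized log2 intensity (vertical axis) of DSC2, DSP and KRT19 against the replicate number (horizontal axis), with 1 point per array, GFP as circles and FOXA1 as squares. In both groups DSC2 is highest at number 6, DSP at number 3 and KRT19 at number 5, and the points of a number lie farthest apart for DSP at number 5 and DSC2 at number 3.

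The deviations of the 28 genes did not run in one direction on any array. GFP 2 was low for CTNNB1, CDH1, PKP3 and DSC2, and the mean deviation over the adherens junction genes was -0.34 and over the desmosome genes -0.30 there, while the keratins stood at 0.10. On GFP 6 the same means were 0.23 for adherens junction genes and 0.29 for desmosome genes. On FOXA1 3 the adherens junction genes were at 0.18 on average and the keratins at -0.30. Single genes differed there, with KRT8 at 0.12, KRT18 at -0.60, KRT19 at -0.43 and CTNNB1 at -0.11. The 3 arrays highest on the leading component were the 3 highest for CDH1, CLDN7, PKP4 and NECTIN2, 4 of 28 genes (14.3%, against 7.17% of all genes). They were the 3 lowest for KRT19 and MARVELD2, 2 of 28 (7.14%, against 3.64% of all genes).

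**Figure D5:**
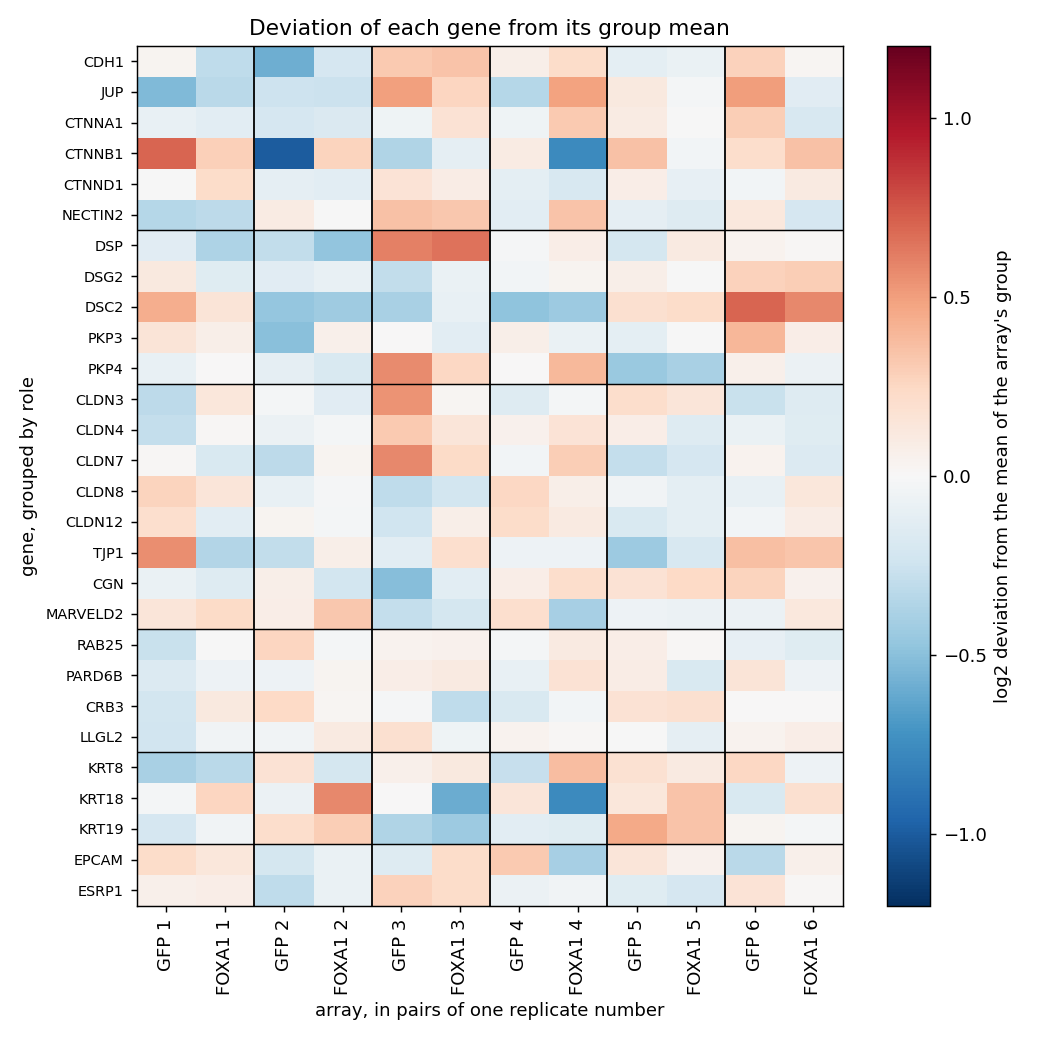
Log2 deviation of each of the 28 genes (vertical axis, grouped by role) from the mean of its group on each of the 12 arrays (horizontal axis, paired by replicate number), red above and blue below. DSC2 deviates in the same direction in both arrays of every number, and KRT19 in those of every number but 6. GFP 2 is blue for CTNNB1, CDH1, PKP3 and DSC2.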

How the data were processed

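RNA of 12 LNCaP samples was labelled with biotin and read on Illumina bead arrays. The authors deposited a non-normalized and a normalized table, both of log2 intensities, and the values used are those of the normalized table, whose 12 medians lay between 7.428 and 7.429. How background and normalization were handled is not given in the sources used here. Arrays took their group and replicate number from their titles. Missing values removed 6 probes. Gene symbols came from the platform annotation (30113 with 1 symbol, 8 with several, 17202 unlisted). Probes whose mean over all arrays exceeded the median of all probes were kept, which ignores group, and the brightest probe stood for each gene, leaving 12420 genes. The difference between groups was tested by limma 3.58.1 under R 4.3.3 (lmFit, then eBayes, two-sided, adjusted by Benjamini-Hochberg at 0.05), and replicate numbers by limma's moderated F test beside the group. Both fits were tested on simulated data with noise drawn independently for each gene and array. The real arrays share a leading component, so that simulation does not show how the fits err here. Single genes were also compared by exact permutation. The members and lists were chosen with earlier results of these data known. Named genes were those with the smallest p in each direction, 6 central genes, and those called by replicate number, with every other member named by level or difference. The number of arrays limits the precision. Alternatives were other normalizations, filters, probe rules and variance models, array weights, the replicate block and arrays left out. Leaving out GFP 3, FOXA1 3 and FOXA1 4 together was chosen after seeing the data.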

Additional observations from a re-analysis of the deposited data

Results flagged for a closer look

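In 56 groups of 6 arrays (28 genes in each group), 1 value lay apart from the rest of its group by Dixon's criterion, where chance gives about 2.8. DSP on GFP 3 was 9.574, the nearest other GFP array was 9.006 and the lowest 8.677. FOXA1 3 was likewise the highest FOXA1 array for DSP, at 9.80.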

How the results depend on the processing

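No gene was called between the groups by limma under any of the 21 alternatives, with 79 to 508 genes at an unadjusted p under 0.05, and 0 members were called. Same-numbered arrays did not all deviate together (correlations of their deviations over all genes were -0.268 for number 4 and 0.205 to 0.639 for the others, and 4 of 12 arrays correlated best with their own number), so the numbers were not taken as pairs. With the replicate block 0 genes were called, 335 had an unadjusted p under 0.05, and the median member difference was 0.0411. That median ranged from 0.00197 to 0.0715 when single arrays were left out and was 0.0739 under median centring, where the median of all genes was 0.0402. The replicate number F test called 116 genes and 0 members under median centring, 1014 genes with array weights, 582 genes and 1 member without GFP 3, FOXA1 3 and FOXA1 4, and 104 (without GFP 5) to 2045 (without GFP 4) genes and 1 to 11 members without single arrays. The cause was not tested. With those 3 arrays left out, differences changed sign for CLDN12 (-0.01025), CLDN3 (0.008338), DSG2 (-0.01401), JUP (-0.03705), KRT18 (0.179), KRT8 (-0.006574), LLGL2 (0.006432), MARVELD2 (0.01081) and NECTIN2 (-0.08888). The mean over probes changed it for CTNND1 (0.007595) and EPCAM (0.01246), and array weights for NECTIN2 (-0.00167). Leaving out single arrays moved the difference of CLDN3 from -0.1628 to 0.007374, DSG2 from -0.0269 to 0.08809, EPCAM from -0.08121 to 0.06133, JUP from -0.05611 to 0.1501, NECTIN2 from -0.06046 to 0.07836, PKP4 from -0.03205 to 0.1705 and the mesenchymal marker SPARC from -0.1003 to 0.0004002. DSP lost its replicate number call with the mean over probes (adjusted p = 0.221), KRT19 with a variance trend (0.0646), and both under median centring (0.156 and 0.273). Signal near background limits CLDN4, CTNND1, PARD6B and LLGL2.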
